A study of Hordeum vulgare with 12 samples.

Results

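Barley crowns collected 30 min after the start of an auxin treatment were compared with crowns collected just before it. The comparison takes in 6 of the 12 libraries of the study, the 3 of the 30 min group and the 3 of the 0 h group, chosen by their labels. The crown is the short junction of stem and root from which cereals form shoot-borne crown roots, and the study holds their formation back and then starts it with auxin. Seedlings of the cultivar Golden Promise were germinated for 3 days and grown for 3 days in half-strength nutrient solution with 50 µM NPA. NPA blocks the transport of auxin between cells. The 0 h crowns came from the solution with NPA. The 30 min crowns came from seedlings moved for that time to the same nutrient solution with 50 µM of the synthetic auxin 1-NAA. Each library was made from the poly(A) RNA of 5 pooled crowns, 2 mm long, so that the p-values below measure the spread between such pools of 1 experiment. No crowns kept on NPA were sampled at 30 min, and the auxin, the loss of NPA, the handling of the seedlings and the time of day cannot be told apart.

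Auxin acts in the nucleus by binding a receptor of the TIR1 family, which leads to the breakdown of Aux/IAA repressors and frees auxin response factors to switch on genes. The first genes to respond in plants are typically Aux/IAA genes themselves, GH3 genes, whose enzymes join auxin to amino acids, and SAUR genes. Jasmonate, a hormone of wounding and defence, works through a similar repressor, the JAZ proteins, and jasmonate signalling switches on JAZ genes together with CYP94 enzymes that oxidise the active hormone. Transient rises of calcium in the cell, read by EF-hand proteins such as calmodulin, come with touch, wounding and temperature change in many plants.

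Of 24920 genes tested, 1 rose at 30 min (0.00401%) and 0 fell (0.0%) by edgeR's quasi-likelihood test at an adjusted p under 0.05. With the replicate number as a block, which the libraries' pairing allowed, 3 rose (0.012%) and 0 fell. An unadjusted p under 0.05 was reached by 852 genes that stood higher (3.42%) and 243 that stood lower (0.975%), 1095 together, where 1246 would reach it if nothing differed. With the block the counts were 1389 higher (5.57%) and 494 lower (1.98%), 1883 together. All 3 libraries of 30 min lay above all 3 of 0 h for 1166 genes (4.68%) and below them for 733 (2.94%). The median log2 fold change over all genes was -0.01. In the authors' deposited table, 89 of 26158 genes were called higher (0.34%) and 2 lower (0.00765%), and DESeq2 run on the same counts called 93 higher (0.373%) and 3 lower (0.012%). All 91 calls of the authors' deposited table were among these. The wider set of 89 genes is used below to describe the early response. It rests on these same 6 libraries, and edgeR called 1 of the 89. In counts simulated for the same groups, a larger share of DESeq2's calls than of edgeR's was false. Those counts took their spread from edgeR's own fit and held no pairing of replicates, so that they cannot rank the methods on the real counts.

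**Figure D1:**
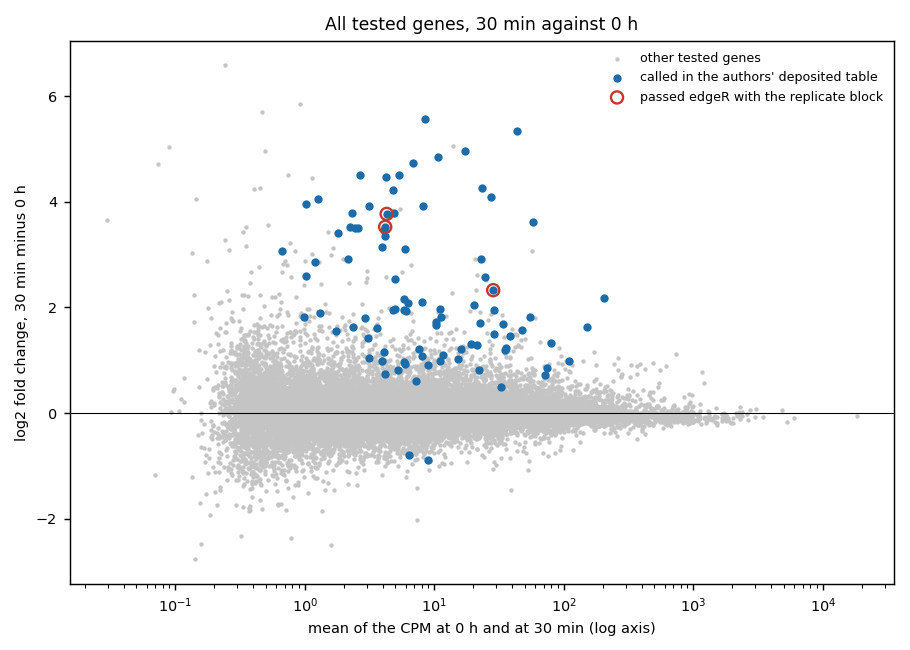
Log2 fold change of each tested gene at 30 min against 0 h, on the vertical axis, against the mean of its CPM at both times, on a log axis. Blue points are genes called in the authors' deposited table, 89 higher and 2 lower, and red circles are the 3 genes that passed edgeR with the replicate block.

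GH3.3, encoded by HORVU.MOREX.r2.2HG0106420.1 (2H, 121197894 to 121199873), rose by both edgeR models. It had 9.08, 9.48 and 9.82 CPM (counts scaled to the size of the library) in the 0 h libraries and at 48.5, 42.8 and 51.3 CPM at 30 min. The groups lay far apart, and the replicates within each agreed closely. Its log2 fold change was 2.33 ± 0.235 (SE, edgeR adjusted p = 0.0133, 0.00709 with the block). Leaving out 1 of the 6 libraries other than replicate 2 of 30 min raised the adjusted p above 0.05, to between 0.0616 and 0.205, with the fold change between 2.27 and 2.36.

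A JAZ gene and a cytochrome P450 gene rose by the test with the replicate block and missed the threshold without it. JAZ repressor HORVU.MOREX.r2.7HG0555360.1 (chromosome 7H, 106725797 to 106726225), similar to Arabidopsis TIFY 3B, had 0.193, 0.305 and 1.13 CPM at 0 h and 4.66, 7.55 and 11.9 CPM at 30 min. Replicate 3 was the highest and replicate 1 the lowest at both times. The log2 fold change was 3.91 ± 0.428 with the block (adjusted p = 0.0192) and 3.77 ± 0.634 without it (adjusted p = 0.276). The P450 gene HORVU.MOREX.r2.4HG0296400.1 (chromosome 4H, 140439989 to 140441518) is similar to Arabidopsis CYP94C1, an enzyme that oxidises the active jasmonate. It had 0.386, 0.266 and 1.24 CPM at 0 h and 3.88, 10.1 and 9.15 CPM at 30 min, with no overlap. Its log2 fold change was 3.63 ± 0.423 with the block (adjusted p = 0.0241) and 3.52 ± 0.656 without it (adjusted p = 0.314).

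**Figure D2:**
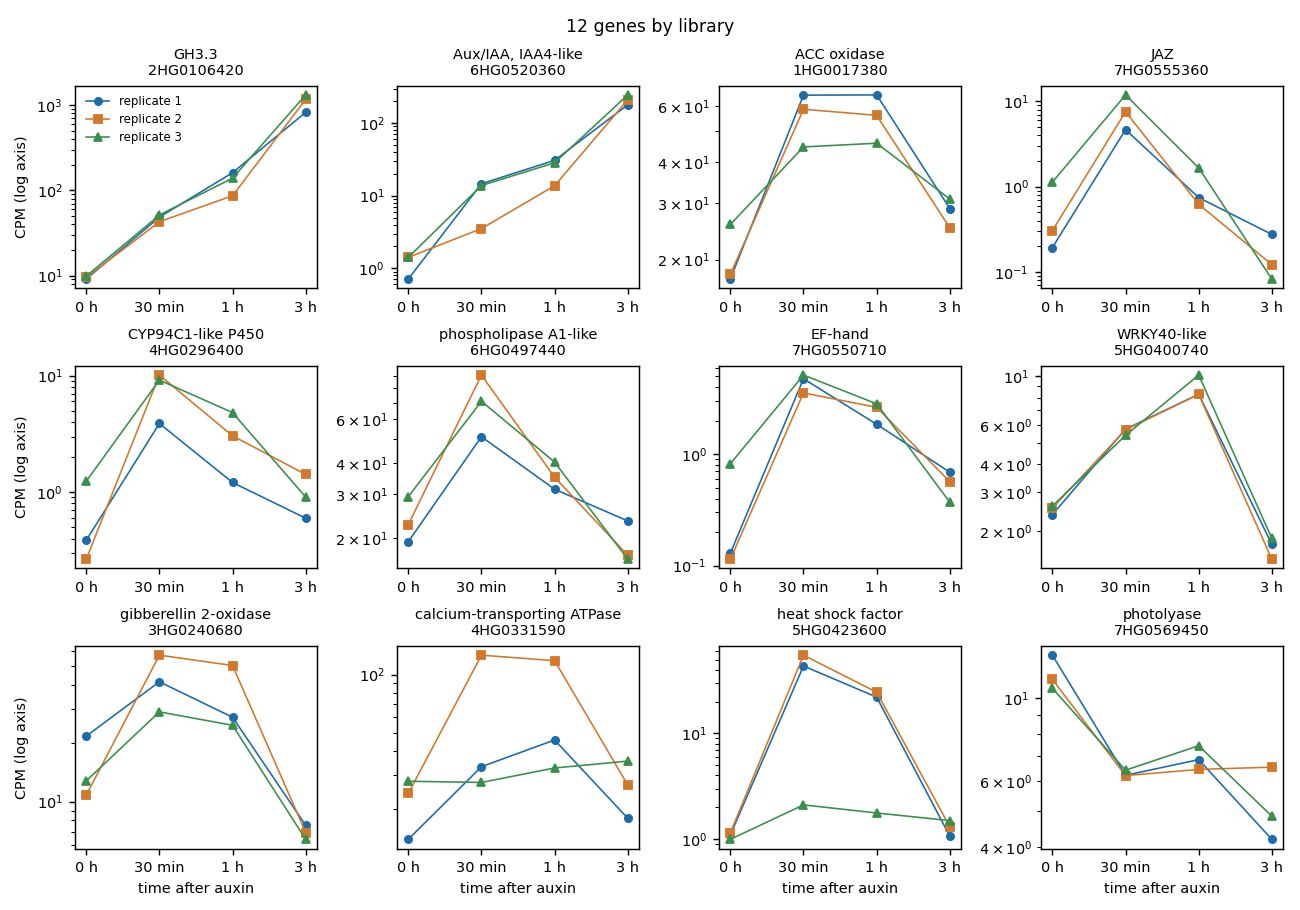
CPM of 12 genes in each library at 0 h, 30 min, 1 h and 3 h, on log axes with a range of its own in each panel; lines join libraries of the same replicate number. GH3.3 and the IAA4-like gene were highest at 3 h, JAZ and most others at 30 min, and the heat shock factor was high at 30 min in replicates 1 and 2 alone.

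Among the auxin genes that did not pass, the Aux/IAA gene HORVU.MOREX.r2.6HG0520360.1 (chromosome 6H, 556882099 to 556882739), similar to Arabidopsis IAA4, had the largest estimate of its family. It had 0.708, 1.41 and 1.41 CPM at 0 h and 14.6, 3.52 and 13.8 CPM at 30 min. Replicate 2 of 30 min lay between the other replicates and the 0 h libraries. The log2 fold change was 3.11 ± 0.52 (adjusted p = 0.276); leaving out replicate 2 of 30 min gave 3.53 and an adjusted p of 0.0245. A second GH3.3 gene, HORVU.MOREX.r2.3HG0242100.1, showed the same order of libraries at 30 min, with 3.48, 2.86 and 4.73 CPM at 0 h against 15, 4.07 and 7.17 CPM at 30 min. Its groups overlapped (log2 fold change 1.23 ± 0.389, adjusted p = 0.8). The gene HORVU.MOREX.r2.2HG0088620.1, described as D-ribose-binding, had 2.32, 1.6 and 2.01 CPM at 0 h and 9.7, 3.86 and 9.11 CPM at 30 min. Here too replicate 2 was the lowest at 30 min, and without it the log2 fold change was 2.26 with an adjusted p of 0.0468.

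The auxin families as wholes lay close to 0 at 30 min. Of 17 Aux/IAA genes tested, 13 had a fold change above 0, the median was 0.11, and 3 (17.6%) had groups that did not overlap, all of them higher. The 9 GH3 genes had a median of 0.2 and 1 gene (11.1%) without overlap, and the 45 SAUR genes a median of 0.17 and 4 (8.89%) without overlap, where 4.68% of all genes were higher without overlap. The auxin response factors (29 genes) had a median of -0.07 and LOB domain genes (22) of 0.14. For auxin transport genes (34) it was 0.03 and for receptor and synthesis genes (11) -0.08. Among the auxin lists only GH3 held a gene that passed edgeR, GH3.3 (HORVU.MOREX.r2.2HG0106420.1), the 1 gene called of all 24920 tested. Higher without overlap were 2 response factors (6.9%), 2 LOB domain genes (9.09%), 0 transport genes and 1 receptor or synthesis gene (9.09%). On the lower side were 2 transport genes (5.88%), beside 2.94% of all genes. In replicate 3 of 30 min, 11 of the 17 Aux/IAA genes lay above the highest 0 h library, against 5 and 6 in replicates 1 and 2. The same count over all tested genes was 21.6%, 25.4% and 24.6% in replicates 3, 1 and 2. The SAUR gene HORVU.MOREX.r2.5HG0417310.1 had 0 counts in every 0 h library and stayed below 0.1 CPM at 30 min, which is under the limit that 3 counts set.

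The hormone list with the largest median was that of the JAZ genes. All 15 tested members had a fold change above 0, the median being 2.58 on the log2 scale, and 12 (80.0%) had all libraries of 30 min above all of 0 h, beside 4.68% of all genes. The authors' deposited table called 7 of the 15 higher, beside 0.34% of all genes. Of the same 15, edgeR called 0 and the block model 1, where over all genes they called 0.00401% and 0.012% higher. Left without any 1 library at 0 h or 30 min, the median stayed between 2.1 and 3.28. Summed over the list, JAZ reads amounted to 370.0, 395.0 and 496.0 CPM at 0 h and to 514.0, 978.0 and 670.0 CPM at 30 min. The lowest sum at 30 min lay just above the highest at 0 h.

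Of 8 JAZ genes on chromosome 7H, 7 were tested. The 7 lie within 198339 bp (106562361 to 106760699), and 5 of them were called higher in the authors' deposited table, beside 0.34% of all genes. Of these, HORVU.MOREX.r2.7HG0555340.1 had 0.386, 0.533 and 1.92 CPM at 0 h and 9.32, 16.1 and 20.5 CPM at 30 min. The neighbouring HORVU.MOREX.r2.7HG0555380.1 had 0.129, 0.0381 and 0.821 CPM at 0 h and 4.99, 8.74 and 10.8 CPM at 30 min, and HORVU.MOREX.r2.7HG0555400.1 had 0.193, 0.0761 and 0.368 CPM against 2.61, 5.01 and 7.74 CPM. Both of the latter lay under the limit that 3 counts set in replicate 2 of 0 h (0.114 CPM), so that the size of their fold changes is uncertain. In each of these JAZ genes replicate 3 was highest and replicate 1 lowest at 30 min. None passed edgeR (log2 fold changes 3.92 ± 0.714, 4.46 ± 0.912 and 4.5 ± 0.927, adjusted p = 0.314, 0.37 and 0.37), and without the block or with it on all libraries they stayed above 0.05. The JAZ gene HORVU.MOREX.r2.5HG0398310.1 on chromosome 5H followed another order, with 5.47, 3.27 and 12 CPM at 0 h and 19.6, 70.4 and 35.5 CPM at 30 min (2.58 ± 0.559, adjusted p = 0.416). How the counting treated reads shared by near-identical neighbours is not given in the sources used here, and the split of reads among the 7H copies is uncertain.

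The 3 CYP94 genes had a median of 2.16, and beside the CYP94C1-like gene HORVU.MOREX.r2.1HG0066640.1, similar to CYP94B3, had 3.15, 0.876 and 2.41 CPM at 0 h and 8.65, 7.55 and 12.2 CPM at 30 min (2.16 ± 0.507, adjusted p = 0.448). Of 32 genes of jasmonate synthesis, 24 lay above 0, with a median of 0.19, and 5 (15.6%) were without overlap on the higher side and 1 (3.12%) on the lower, beside 4.68% and 2.94% of all genes. The lipoxygenase gene HORVU.MOREX.r2.2HG0141810.1, similar to Arabidopsis lipoxygenase 3, had 9.78, 8.53 and 13.2 CPM at 0 h and 17.2, 60.7 and 24.8 CPM at 30 min (1.7 ± 0.451, adjusted p = 0.626). Replicate 2 carried most of its difference. A phospholipase A1-like gene, HORVU.MOREX.r2.6HG0497440.1, of a class of enzymes that release fatty acids from membrane lipids, was more even across replicates. It had 19.3, 22.6 and 29.3 CPM at 0 h and 51.1, 90.6 and 71.0 CPM at 30 min (1.58 ± 0.233, adjusted p = 0.161). The 15 genes described as jasmonate-induced proteins had a median of 0.01 and 0 genes without overlap.

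Ethylene is made from ACC by ACC oxidase. All 12 tested ACC synthase and oxidase genes had a fold change above 0, with a median of 0.24, and 3 (25.0%) were without overlap, beside 4.68% of all genes on the higher side. Of the oxidases, HORVU.MOREX.r2.1HG0017380.1 (chromosome 1H, 78723318 to 78724244) had 17.4, 18.0 and 25.7 CPM at 0 h and 64.7, 58.5 and 44.7 CPM at 30 min. Its groups were well separated, with a log2 fold change of 1.45 ± 0.2 (adjusted p = 0.15, 0.0604 with the block). With no filter on low counts its adjusted p was 0.0495. A second ACC oxidase gene, HORVU.MOREX.r2.1HG0017390.1, had 11.8, 7.35 and 14.2 CPM at 0 h and 38.8, 21.9 and 22.2 CPM at 30 min (1.31 ± 0.303, adjusted p = 0.432). Ethylene reception and signalling genes (14, median 0.02) and ethylene response factors (75, median 0.06) had medians near 0. Of the response factors, however, 9 of 75 were higher without overlap and 2 (2.67%) lower, beside 4.68% and 2.94% of all genes. Of the reception and signalling genes, 0 were without overlap. One response factor gene, HORVU.MOREX.r2.2HG0157200.1, had 3.8, 2.63 and 6.96 CPM at 0 h and 9.32, 23.6 and 19.8 CPM at 30 min (1.97 ± 0.403, adjusted p = 0.37).

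Of 13 gibberellin oxidase genes, 10 lay above 0, with a median of 0.42. That median ran from 0.11 to 0.74 when single libraries of 0 h or 30 min were left out. The gibberellin 2-oxidase gene HORVU.MOREX.r2.3HG0240680.1, whose family of enzymes inactivates gibberellins, had 21.8, 10.8 and 12.8 CPM at 0 h and 41.6, 57.1 and 29.1 CPM at 30 min (1.5 ± 0.337, adjusted p = 0.416). The groups did not overlap. A cytokinin oxidase gene, HORVU.MOREX.r2.3HG0243630.1, of a family that degrades cytokinins, had 0.901, 2.51 and 1.16 CPM at 0 h and 2.99, 8.27 and 2.29 CPM at 30 min, with overlap (1.55 ± 0.543, adjusted p = 0.876). Medians were 0.09 for cytokinin response regulators (25 genes), 0.16 for cytokinin activation and oxidation (20) and 0.08 for abscisic acid synthesis and reception (11). They were 0.03 for protein phosphatases 2C (65) and -0.02 for gibberellin reception (7). These lists held 0 calls in the authors' deposited table, which called 0.34% of all genes higher. At that share 0 calls are likely in lists this short. Of the response regulators, 3 of 25 were higher without overlap, beside 4.68% of all genes. The other lists, in the order above, had 0 of 20, 1 of 11, 1 of 65 and 1 of 7. None of these lists had a gene lower without overlap. The abscisic acid receptor gene HORVU.MOREX.r2.2HG0089250.1 had 48.5, 43.3 and 39.4 CPM at 0 h and 67.4, 53.3 and 54.4 CPM at 30 min (0.42 ± 0.153, adjusted p = 0.936).

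**Figure D3:**
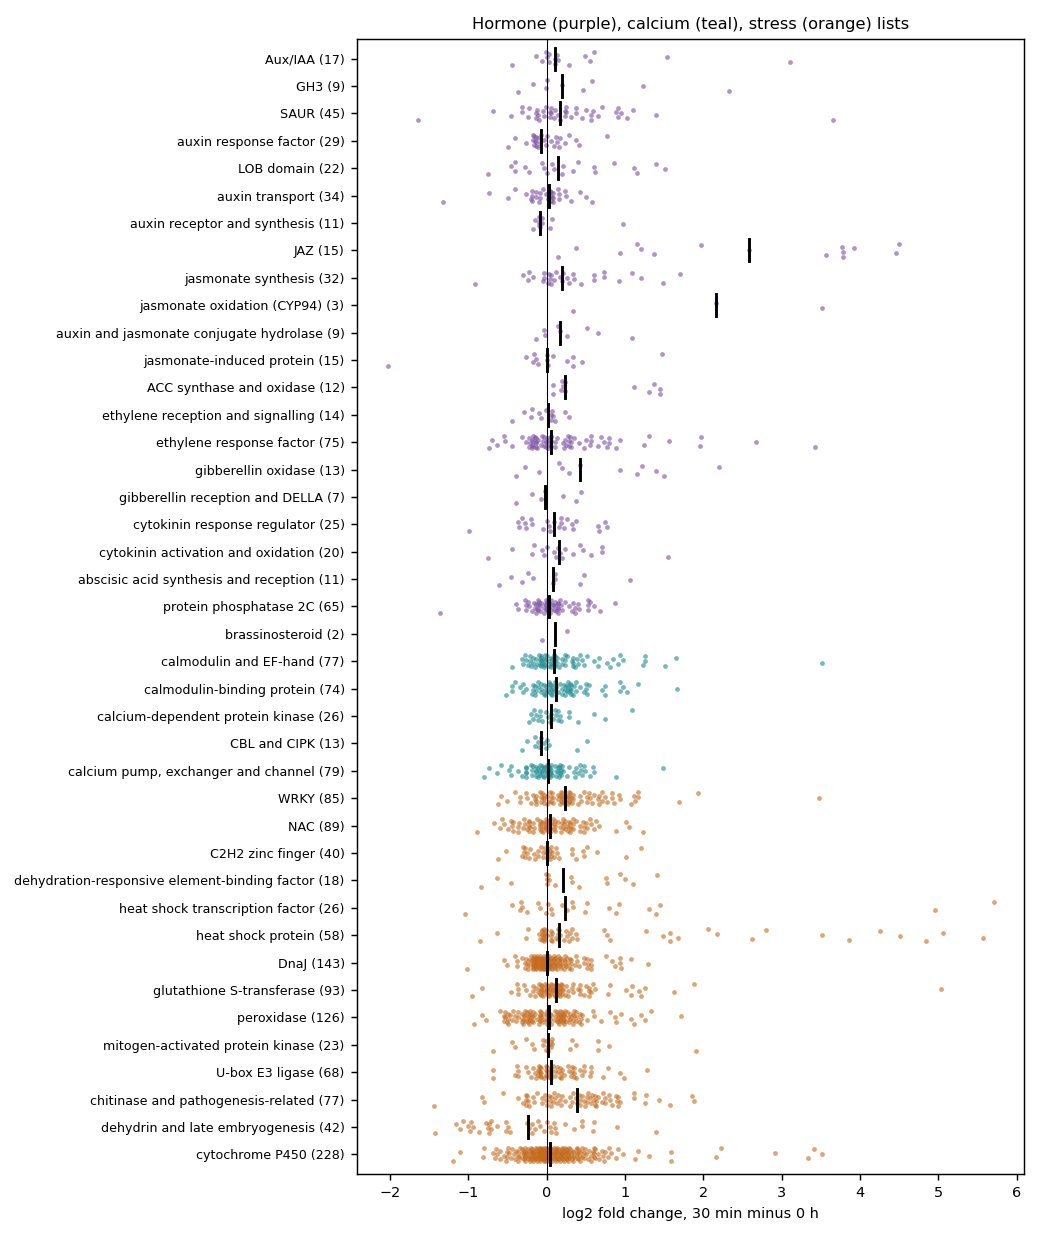
Log2 fold change at 30 min against 0 h of each tested member of the hormone, calcium and stress lists, with the number of tested members in brackets; the black bar is the list's median. The JAZ list has its median at 2.58 and the other lists with more than 3 members have theirs between -0.24 and 0.42.

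Among calcium genes a few members stood apart and the lists lay near 0, and none passed edgeR with all libraries. An EF-hand protein of the calmodulin-like type that binds calcium, HORVU.MOREX.r2.7HG0550710.1 (chromosome 7H, 75504040 to 75504330), had 0.129, 0.114 and 0.821 CPM at 0 h and 4.77, 3.56 and 5.15 CPM at 30 min. The 30 min libraries were close to each other and replicate 3 stood apart at 0 h. The log2 fold change was 3.51 ± 0.574 (adjusted p = 0.276, 0.0604 with the block), and leaving out replicate 3 of 0 h gave 5.17 and an adjusted p of 0.00802. Replicates 1 and 2 of 0 h lay at or under the limit that 3 counts set there (0.186 and 0.114 CPM), so that the size of 5.17 is uncertain. The gene HORVU.MOREX.r2.3HG0187650.1, similar to the touch-induced TCH2 of Arabidopsis, had 8.82, 9.97 and 20.5 CPM at 0 h and 29.3, 63.1 and 20.4 CPM at 30 min (1.51 ± 0.412, adjusted p = 0.663). Its replicate 3 was level between the times. The calmodulin-binding protein gene HORVU.MOREX.r2.5HG0368520.1 had 4.06, 4.53 and 6.2 CPM at 0 h and 12.7, 24.7 and 9.57 CPM at 30 min, without overlap (1.66 ± 0.374, adjusted p = 0.416).

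Of 77 calmodulin and EF-hand genes, 49 lay above 0 (median 0.09) and 7 (9.09%) were without overlap, all higher. Of 74 genes of calmodulin-binding proteins, 49 lay above 0 (median 0.12), with 8 (10.8%) without overlap on the higher and 2 (2.7%) on the lower side. Over all genes these shares were 4.68% and 2.94%, so that the lower count was at the background. The calcium-dependent protein kinases (26 genes) had a median of 0.06, the CBL and CIPK genes (13) of -0.07, and calcium pumps, exchangers and channels (79) of 0.02. The calcium-transporting ATPase gene HORVU.MOREX.r2.4HG0331590.1, of pumps that move calcium out of the cytosol, had 14, 24.2 and 28 CPM at 0 h and 33.3, 126.0 and 27.6 CPM at 30 min. It was by far the highest in replicate 2, while replicate 1 lay somewhat above the 0 h libraries and replicate 3 was level between the times (1.49 ± 0.608, adjusted p = 1.0). The calcium-dependent protein kinase gene HORVU.MOREX.r2.5HG0429750.1 was higher in replicates 1 and 2, with 17.1, 9.25 and 11.1 CPM at 0 h and 29.1, 37.0 and 13.3 CPM at 30 min (1.09 ± 0.334, adjusted p = 0.757).

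WRKY genes, a plant family of transcription factors known from defence and wounding, were among the stress lists with several members without overlap. Of 85 tested, 63 lay above 0, the median was 0.23, and 13 were without overlap, all higher (15.3%, beside 4.68% of all genes). The authors' deposited table called 4 of the 85 higher, beside 0.34% of all genes. The gene HORVU.MOREX.r2.5HG0400740.1 (chromosome 5H, 452770168 to 452771471), similar to WRKY40, had 2.38, 2.55 and 2.6 CPM at 0 h and 5.77, 5.73 and 5.41 CPM at 30 min, the tightest groups among the WRKY genes named here. Its log2 fold change was 1.16 ± 0.173 (adjusted p = 0.161, 0.0604 with the block). The neighbouring pair HORVU.MOREX.r2.7HG0616250.1 and HORVU.MOREX.r2.7HG0616260.1 on chromosome 7H had log2 fold changes of 3.47 ± 0.609 (adjusted p = 0.314) and 1.93 ± 0.396 in the same test. The first had 0.965, 0.266 and 0.821 CPM at 0 h and 3.72, 7.47 and 11.2 CPM at 30 min.

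Protein kinases made up 11 of the 89 genes called higher in the authors' deposited table. Tested genes with kinase in the description, lipid and metabolite kinases included, numbered 1776, of which these 11 are 0.619%, beside 0.34% of all genes in the authors' deposited table. The kinase class was formed after the calls were seen. Log2 fold changes of the 11 ran from 0.82 to 3.52. The cysteine-rich receptor-like kinase gene HORVU.MOREX.r2.4HG0337370.1 had 17.4, 17.4 and 37.6 CPM at 0 h and 77.4, 108.0 and 71.6 CPM at 30 min. The kinase pair HORVU.MOREX.r2.3HG0234530.1 and HORVU.MOREX.r2.3HG0234560.1, similar to mitogen-activated kinase kinase kinases, had 0.708, 0.343 and 0.481 CPM and 0.257, 0.0761 and 0.679 CPM at 0 h. At 30 min they had 2.72, 7.0 and 1.64 CPM and 2.27, 5.98 and 4.16 CPM. The mitogen-activated protein kinase gene HORVU.MOREX.r2.1HG0073180.1 was high in replicate 2, with 11.3, 74.6 and 20.4 CPM at 30 min against 6.24, 9.71 and 12.1 CPM at 0 h (1.91 ± 0.583, adjusted p = 0.749).

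Of 126 tested basic helix-loop-helix genes, 4 (3.17%) were called higher in the authors' deposited table, beside 0.34% of all genes. This class, too, was formed after the calls were seen. HORVU.MOREX.r2.2HG0131040.1 had 2.0, 0.457 and 3.71 CPM at 0 h and 34.7, 186.0 and 33.9 CPM at 30 min (5.33 ± 1.01). The second, HORVU.MOREX.r2.3HG0181460.1, had 6.18, 6.43 and 10.9 CPM at 0 h and 19.9, 56.1 and 22.4 CPM at 30 min (2.05 ± 0.379, adjusted p = 0.314). In both, replicate 2 of 30 min was well above the other replicates. A NAC gene, HORVU.MOREX.r2.3HG0211410.1, had 22.7, 19.2 and 22.3 CPM at 0 h and 47.1, 74.4 and 28.7 CPM at 30 min (1.23 ± 0.28, adjusted p = 0.431).

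Of the remaining stress lists, the 77 chitinase and pathogenesis-related genes had a median of 0.39 with 58 above 0 and 8 (10.4%) without overlap, beside 4.68% of all genes, and edgeR called 0 of them. The median was 0.15 to 0.49 when single libraries were left out. In replicates 1, 2 and 3 of 30 min, 45 (58.4%), 16 (20.8%) and 30 (39.0%) of the 77 lay above the highest 0 h library. Over all tested genes these shares were 25.4%, 24.6% and 21.6%, so that replicate 2 did not exceed the background. The chitinase gene HORVU.MOREX.r2.3HG0233570.1 had 9.85, 11.1 and 14.4 CPM at 0 h and 30.9, 24.2 and 30.6 CPM at 30 min (1.27 ± 0.371, adjusted p = 0.697). Glutathione S-transferases (93 genes, median 0.12), peroxidases (126, median 0.03), C2H2 zinc finger genes (40, median 0.01), U-box ligases (68, median 0.05) and DnaJ genes (143, median 0.0) had medians near 0. Of the U-box genes, however, 8 (11.8%) were higher without overlap and 1 (1.47%) lower. In the other lists of this group the higher share ran from 2.38% to 5.59%. The 89 NAC genes had a median of 0.04, with 9 (10.1%) without overlap on the higher side and 4 (4.49%) on the lower. Over all genes these shares were 4.68% and 2.94%. The NAC list missed 4 genes with hyphenated descriptions, among them HORVU.MOREX.r2.3HG0250450.1, called higher in the authors' deposited table. With them the 93 genes had a median of 0.06, with 11 (11.8%) higher and 4 lower without overlap. The 18 dehydration-responsive element-binding factors had a median of 0.21 and 0 members without overlap on the higher side. The 42 dehydrin and late embryogenesis genes had a median of -0.24, which ran from -0.48 to 0.33 when single libraries were left out.

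Heat shock genes had some of the largest fold changes of the stress lists, and their replicates at 30 min were uneven. Among heat shock factors, the regulators that switch on chaperone genes, HORVU.MOREX.r2.5HG0423600.1 (chromosome 5H, 534572494 to 534573686) had 1.09, 1.14 and 0.99 CPM at 0 h and 43.6, 55.2 and 2.1 CPM at 30 min. Replicates 1 and 2 were far above 0 h and replicate 3 just above it (4.96 ± 1.12, adjusted p = 0.416). The small heat shock protein gene HORVU.MOREX.r2.3HG0197210.1 had 8.75, 6.32 and 10.9 CPM at 0 h and 139.0, 165.0 and 15.8 CPM at 30 min. HSP70 chaperone genes had the same pattern. Of these, HORVU.MOREX.r2.1HG0059310.1 had 56.6, 46 and 118.0 CPM at 0 h and 412.0, 448.0 and 142.0 CPM at 30 min (2.18 ± 0.584, adjusted p = 0.63), and HORVU.MOREX.r2.3HG0252650.1 had 0.257, 0.305 and 0.679 CPM and then 11.2, 18.2 and 1.07 CPM (4.51 ± 1.2, adjusted p = 0.626).

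The same order held for all 9 heat shock genes called higher in the authors' deposited table, with replicate 2 of 30 min the highest and replicate 3 the lowest in each. Over all tested genes, replicate 3 was the lowest of the 30 min libraries in 28.2%. Of the 58 heat shock protein genes tested, 40 lay above 0 (median 0.16) and 13 (22.4%) were higher without overlap, beside 4.68% of all genes. A log2 fold change over 1 was found in 16, of which 14 were lowest in replicate 3. These 58 leave out 19 genes whose descriptions spell heat-shock with a hyphen, such as HORVU.MOREX.r2.3HG0197210.1. With them 59 of 77 lay above 0, the median was 0.32, 26 (33.8%, beside 4.68% of all genes) were higher without overlap, and of 28 with a log2 fold change over 1, 26 were lowest in replicate 3. Summed over the 58, the reads were 10900, 12000 and 10800 CPM at 0 h and 14400, 13300 and 10000 CPM at 30 min, so that the sums overlapped. The 26 heat shock factor genes had a median of 0.23. Of the small heat shock genes, 3, HORVU.MOREX.r2.3HG0197300.1, HORVU.MOREX.r2.3HG0197310.1 and HORVU.MOREX.r2.3HG0197320.1, lie within 21909 bp of chromosome 3H, and reads may be shared among such copies.

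Replicates of 30 min also differed in other genes. Of the 80 genes of the authors' deposited table that are not heat shock genes, replicate 2 was the highest in 45 (56.2%), beside 32.9% of all tested genes. The MYB-related gene HORVU.MOREX.r2.1HG0020290.1, similar to Arabidopsis REVEILLE 5, had 0.257, 0.495 and 0.622 CPM at 0 h and 1.33, 24.0 and 1.94 CPM at 30 min. Replicate 2 was thus high for it, as for the calcium ATPase, the lipoxygenase and the mitogen-activated kinase above, and low for the auxin genes HORVU.MOREX.r2.6HG0520360.1 and HORVU.MOREX.r2.3HG0242100.1. Which feature of the pools goes with these orders was not tested.

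**Figure D4:**
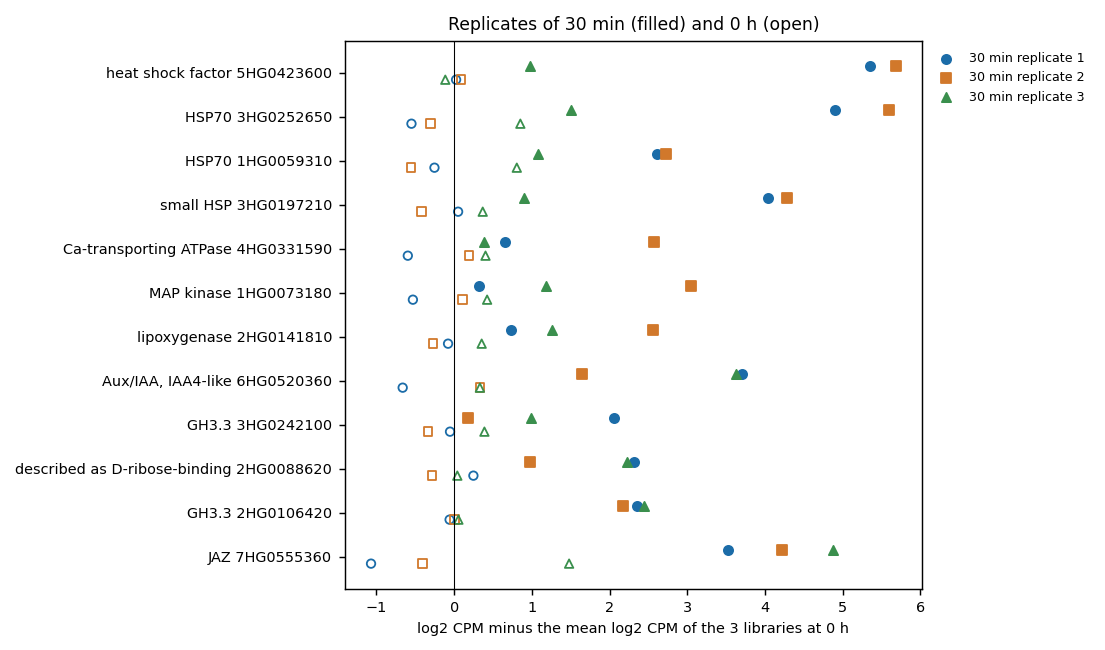
Log2 CPM of 12 genes in each 0 h library (open) and each 30 min library (filled), relative to the mean log2 CPM of the 3 libraries at 0 h; marker shapes stand for replicates 1 to 3. In the heat shock genes replicate 3 of 30 min lay near 0 h, in the ATPase, kinase and lipoxygenase genes replicate 2 lay highest, and in GH3.3 (2HG0106420) the 3 replicates lay together.

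No gene fell by edgeR at an adjusted p under 0.05, with or without the block, while 243 stood lower at an unadjusted p under 0.05 and DESeq2 called 3 lower. Among described genes of at least 1 CPM without overlap, the smallest p of these was that of HORVU.MOREX.r2.7HG0569450.1, described as a deoxyribodipyrimidine photolyase, an enzyme type that repairs ultraviolet damage of DNA. It had 13.0, 11.2 and 10.6 CPM at 0 h and 6.21, 6.2 and 6.41 CPM at 30 min (-0.88 ± 0.183, adjusted p = 0.37). A kinase gene, HORVU.MOREX.r2.1HG0077460.1, had 8.43, 8.41 and 7.24 CPM at 0 h and 4.33, 4.8 and 4.8 CPM at 30 min (-0.79 ± 0.169, adjusted p = 0.394). Both had tight groups with no overlap, and both are the genes called lower in the authors' deposited table. A glycosyltransferase gene similar to Arabidopsis UGT72B1, HORVU.MOREX.r2.6HG0464060.1, had 27.6, 24.8 and 27 CPM at 0 h and 16.6, 14.6 and 18.3 CPM at 30 min (-0.68 ± 0.167, adjusted p = 0.498).

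Of all lists, that of the photosystem genes had the most members lower without overlap. Of 87 tested, 24 lay above 0 (median -0.15), and 14 (16.1%) were without overlap on the lower side, beside 2.94% of all genes. The chlorophyll a-b binding protein gene HORVU.MOREX.r2.1HG0073480.1 had means of 107.0 CPM at 0 h and 63.1 CPM at 30 min (-0.76 ± 0.256, adjusted p = 0.835), and HORVU.MOREX.r2.7HG0554640.1 had 38.5 and 18.5 CPM (-1.05 ± 0.362, adjusted p = 0.868). Summed over the list, however, the libraries overlapped, at 8460, 6360 and 7530 CPM for 0 h and 6650, 5550 and 6600 CPM for 30 min. The 113 cytosolic ribosomal protein genes had a median of -0.11, with 17 above 0, where 47.6% of all genes were. Of these 113, 5 (4.42%) were lower without overlap, beside 2.94% of all genes. Core histone genes (166, median -0.04), cyclin genes (79, median -0.04), expansin and xyloglucan enzyme genes (77, median -0.06) and clock genes (13, median -0.05) had medians near 0. Without overlap, 2 clock genes (15.4%) were lower and 1 (7.69%) higher. Of the expansin and xyloglucan enzyme genes 6 (7.79%) were higher and 0 lower, beside 4.68% and 2.94% of all genes.

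The later libraries, which enter the comparison of 30 min with 0 h only through the common estimate of spread, show how the early genes went on. Between 1 h and 3 h, of the 89 genes called higher in the authors' deposited table, edgeR called 14 lower and 6 higher, where over all genes it called 0.887% lower and 1.19% higher. A fold change below 0 from 1 h to 3 h was found in 72 of the 89, beside 51.4% of all genes. By 3 h, 55 had a mean under 1.5 times that of 0 h and 28 were below it.

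Both GH3.3 and the IAA4-like gene were among the 6 that rose further. GH3.3 (HORVU.MOREX.r2.2HG0106420.1) had means of 129.0 CPM at 1 h and 1110 CPM at 3 h (3.1 from 1 h to 3 h, edgeR adjusted p = 0.000118). The IAA4-like gene HORVU.MOREX.r2.6HG0520360.1 went from 24.3 to 211.0 CPM (3.12, adjusted p = 0.00479). A neighbouring pair of BTB/POZ and TAZ domain genes on chromosome 3H, HORVU.MOREX.r2.3HG0257260.1 and HORVU.MOREX.r2.3HG0257280.1, had changes of 1.16 and 1.74 (adjusted p = 0.0235 and 0.0153). At 30 min their CPM were 4.1, 5.6 and 2.97 for the first, against 2.38, 2.06 and 1.73 at 0 h. The others were HORVU.MOREX.r2.2HG0088620.1 (1.78, adjusted p = 0.0155) and the glycosyltransferase gene HORVU.MOREX.r2.7HG0550420.1 (1.06, adjusted p = 0.00536). The second GH3.3 gene HORVU.MOREX.r2.3HG0242100.1, which is not among the 89, went from 24.2 to 332.0 CPM (3.78, adjusted p = 0.000979).

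The 14 genes that fell between 1 h and 3 h were of several kinds. The WRKY40-like gene HORVU.MOREX.r2.5HG0400740.1 fell by 2.38 on the log2 scale (adjusted p = 0.000118) from a mean of 8.89 CPM at 1 h to 1.7 CPM at 3 h, below its 0 h level of 2.51 CPM. The gibberellin 2-oxidase gene HORVU.MOREX.r2.3HG0240680.1 fell by 2.3 (adjusted p = 0.00545), HORVU.MOREX.r2.5HG0398310.1, a JAZ gene, by 2.9 (0.0217) and HORVU.MOREX.r2.1HG0017380.1, of ACC oxidase, by 0.98 (0.0255). The response factor gene HORVU.MOREX.r2.2HG0157200.1 fell by 2.3 (adjusted p = 0.0164) and the bHLH gene HORVU.MOREX.r2.2HG0131040.1 by 4.42 (0.0383), to 3.21 CPM. A gene described as a salicylate O-methyltransferase, HORVU.MOREX.r2.UnG0625460.1, fell by 4.18 (adjusted p = 0.00897). The others were a second bHLH gene and genes described as a protein kinase, an N-benzoyltransferase, a haloacid dehalogenase-like hydrolase, an iron-dependent oxygenase, a glucan endo-glucosidase and a pectin lyase-like protein. JAZ repressor HORVU.MOREX.r2.7HG0555360.1, at 1.01 CPM at 1 h and 0.16 CPM at 3 h, did not pass this test (-2.66, adjusted p = 0.109).

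**Figure D5:**
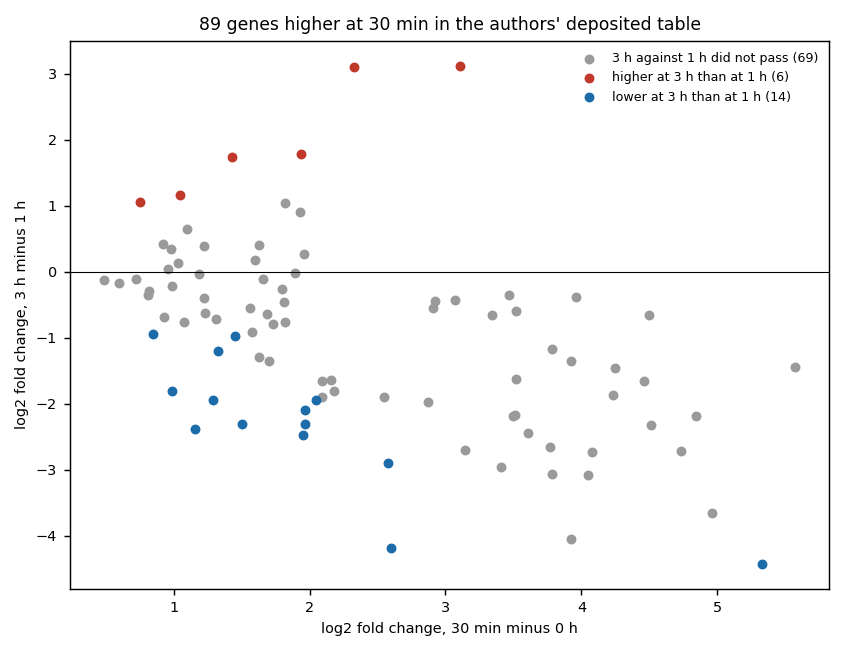
Log2 fold change from 1 h to 3 h, on the vertical axis, against that from 0 h to 30 min, for the 89 genes higher at 30 min in the authors' deposited table; the axes share no library. Red points mark the 6 genes higher at 3 h than at 1 h and blue points the 14 lower, by edgeR.

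The 89 early genes had a low median level in uninduced crowns. They were called for being higher at 30 min in the same libraries, so that a low 0 h level follows in part from the choice. The median CPM of the 89 genes was 2.51 at 0 h and 10.6 at 30 min, where the median of all tested genes at 0 h was 10, and their median length of 996 bases was close to the 1068 of all. In 7 groups, 16 of them lie within 100000 bp of another. These are the small heat shock, JAZ (a pair and a group of 3), WRKY, BTB/TAZ and N-benzoyltransferase genes, and HORVU.MOREX.r2.5HG0423600.1, the heat shock factor, with a gene described as a serine-tRNA ligase, HORVU.MOREX.r2.5HG0423590.1, within 2204 bp. The latter had 0.837, 0.19 and 0.509 CPM at 0 h and 25.8, 12.3 and 1.14 CPM at 30 min, and whether reads of the factor gene were counted for it was not tested.

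Assigned reads numbered between 16093892 and 34019480 per library, and the share assigned was 66.38% and 64.76% in replicate 1 of 0 h and 30 min and 71.93% to 78.44% in the other 4. The first principal component of the 6 libraries (43.9% of the variance) set replicate 1 of both times, at -48.6 and -37.3, apart from the others at 3.64 to 30.1. Without replicate 1 of both times edgeR called 0 genes. Summed levels of most tissue markers were close between the groups. For KNOX genes they were 296.0 to 324.0 CPM at 0 h and 284.0 to 360.0 CPM at 30 min. For root genes they were 542.0 to 613.0 and 562.0 to 614.0, and for xylem genes 158.0 to 238.0 and 136.0 to 206.0. Phloem genes had 29.6 to 32.3 and 30.1 to 35.5, and grain genes 295.0 to 323.0 and 280.0 to 304.0. The photosystem genes, taken as leaf markers, differed more. Of 87, 14 (16.1%) were lower at 30 min without overlap, beside 2.94% of all genes, though their sums overlapped. In such bulk tissue a change in the number of cells of a type and a change in RNA per cell cannot be told apart.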

How the data were processed

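The authors deposited raw, unnormalized read counts for 63658 barley genes, of which 26328 had no read. HISAT2 2.0.5, Subread 1.5.2, bcl2fastq and SAMtools are named in the submitters' processing notes; libraries were directional with paired reads of 150 bases, per the labels. Not given in the sources used here are the genome build, the strand setting and the treatment of multi-mapping reads; coordinates come from the deposited files. The authors' deposited table also holds their own log2 fold changes and adjusted p-values, from an unstated test.

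Counts were tested with edgeR 4.0.16 (TMM, filterByExpr with minimum count 10 and total 15, 24920 genes kept) in R 4.3.3, in 1 model of the 12 libraries at 0 h, 30 min, 1 h and 3 h with 8 residual degrees of freedom, by the quasi-likelihood test with Benjamini-Hochberg adjustment over all genes; the threshold was 0.05. DESeq2 1.42.0 and limma 3.58.1 (voom) were alternatives, with other filters, scaling, samples and single libraries left out. CPM used TMM library sizes, and 3 counts equal 0.0882 to 0.186 CPM, a limit of counting error only. The procedure was tested on simulated data. Lists (52) were made from words in gene descriptions and homolog names, members and lists were chosen with earlier results of these data known, and the 3 h against 1 h test was added after the data were seen. Named genes are those called by edgeR with or without the block, the 14 higher and 6 lower described genes with the smallest p, a mean of at least 1 CPM and no overlap, and the 2 members of each hormone, calcium and stress list with the smallest p; other genes were chosen from the authors' deposited table after their values were seen.

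Replicate numbers were checked as pairs: residuals of same-numbered libraries of 0 h and 30 min correlated at 0.641, 0.465 and 0.45, and of other pairs at -0.43 to 0.0764. Replicates were not duplicates (chi-square per degree of freedom 24.4 to 53.8).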

Additional observations from a re-analysis of the deposited data

How the results depend on the processing

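The count of genes higher at 30 min was 1 by limma voom, with RLE scaling, with only the 6 libraries and with edgeR's newer quasi-likelihood method. The last was added after seeing the data, since the planned legacy method is the installed default and equals the reported test. The count was 93 by DESeq2 with 3 lower, 2 with no filter, 3 with the replicate block, 5 with the replicate block on only the 6 libraries, and 0 without replicate 1 of both times, a choice made after seeing the data. With single libraries left out it ran from 0 to 3 higher and stayed at 0 lower. It came to 0 when replicate 1 or replicate 2 of the 0 h group, or else replicate 1 or replicate 3 of the 30 min group, was dropped. Dropping replicate 3 of 0 h left 1 call, HORVU.MOREX.r2.7HG0550710.1 (EF-hand). Dropping replicate 2 of 30 min left 3, GH3.3 (HORVU.MOREX.r2.2HG0106420.1), HORVU.MOREX.r2.6HG0520360.1 and HORVU.MOREX.r2.2HG0088620.1. The 5 calls with the replicate block on 6 libraries were GH3.3, the JAZ genes HORVU.MOREX.r2.7HG0555360.1, HORVU.MOREX.r2.7HG0555340.1 and HORVU.MOREX.r2.7HG0555400.1 and the DUF581 gene HORVU.MOREX.r2.4HG0337740.1; the P450 gene HORVU.MOREX.r2.4HG0296400.1 was not among them. Beyond these, the replicate block changed no call of a named gene.

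Of 1924 values of named genes under the alternatives, 1877 kept direction and side of the threshold, 36 passed it only under the alternative, 6 no longer passed it and 5 changed sign. The sign changes were those of HORVU.MOREX.r2.2HG0158390.1, at 0.26 with all libraries and -0.43 to 0.53 with single libraries left out (-0.18 when replicate 2 of 0 h and -0.43 when replicate 3 of 30 min was dropped), and of HORVU.MOREX.r2.2HG0108340.1, at -0.06 with all libraries and -0.16 to 0.01 with single libraries left out (0.01 when replicate 1 of 0 h or replicate 3 of 30 min was dropped, and also without replicate 1 of both times). The cause was not tested. Of 1094 list medians, 65 moved by more than the spread between replicates, that of the heat shock proteins from 0.16 to 0.32 when hyphenated descriptions were included, a choice made after seeing the data. With 3 libraries a group and 16093892 reads in the shallowest, changes in genes below about 0.186 CPM at both times were not detectable. A gene low at 0 h alone could pass, as HORVU.MOREX.r2.7HG0550710.1 did without replicate 3 of 0 h. Small changes in genes above this level may also have been missed.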
